A study of Homo sapiens with 18 samples.

Results

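YAP1 and WWTR1, which encode the transcriptional coactivators YAP and TAZ, were described here together with 8 genes of their pathway in human mammary epithelial cells that overexpressed different splicing factors. The 10 genes were taken by name from a list fixed by their known roles: YAP1, WWTR1 and the DNA-binding partner TEAD1; the kinase LATS2 and the regulators AMOTL2 and AJUBA; and CTGF (CCN2 in later releases), CYR61 (CCN1), ANKRD1 and AXL as target genes. All 10 were found among the 60252 genes of the count table, and all 10 passed the filter on low counts that left 21326 genes to test.

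The cells were MCF-10A, an immortalised, non-tumorigenic mammary epithelial line, and every group was grown for 8 days in Matrigel, a basement membrane gel in which these cells form round, hollow structures. Every group carried the retroviral vector PWZL stably. It was empty in Control, and in the overexpression (OE) groups it held the protein-coding part of 1 gene each, for which they are called SRSF2-OE, SRSF4-OE, SRSF6-OE, SRSF9-OE and TRA2B-OE. These 5 proteins bind RNA and regulate splicing. The design asks how expression differed between each OE group and Control. Each group had 3 samples, but replicates 1 and 2 of TRA2B-OE, SRSF6-OE, SRSF4-OE and Control were lanes of a single library. They were summed into a library written 1-2, which left 14 libraries: SRSF9-OE and SRSF2-OE had 3 each, and every other group had 2. Nothing in the labels ties replicates to cultures of their own. The p-values therefore reflect how these libraries varied, and that variation may be technical.

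The Hippo pathway is a kinase cascade in which STK3 or STK4, with the adaptor SAV1, activates LATS1 and LATS2, and these phosphorylate YAP and TAZ and keep them in the cytoplasm. When the kinases are inactive, YAP and TAZ enter the nucleus, bind TEAD proteins and switch on genes such as CTGF, CYR61 and ANKRD1. In epithelial cells this switch is known to respond to attachment, crowding, polarity and the stiffness of the matrix. RNA levels were measured here, not the phosphorylation or location of YAP and TAZ.

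Libraries held 42959069 to 121601376 counts, and mitochondrial transcripts took 6.45% to 16.4% of them. Of 10 basal mammary epithelial markers all were detected in every library, with KRT5 never under 7079 CPM (counts scaled to library size), while EPCAM was low at 0.540 to 11.4 CPM. The endothelial marker CDH5 and the blood cell marker HBB did not exceed 0.0197 and 0.0479 CPM. Other genes of those lists were detected, KDR at 2.24 to 26.2 CPM, TEK at up to 9.09 CPM and CD68 at 0.172 to 1.22 CPM. Of the fibroblast markers, COL1A1 and DCN were detected (44.05 to 278 and 6.30 to 413 CPM), while COL1A2 and COL3A1 stayed at or under 0.366 CPM. The introduced factor was above both Control libraries in every library of its own group except for SRSF6, which stood at 417 and 283 CPM in the libraries labelled SRSF6-OE against 400 and 239 CPM in Control. The separation was narrow for SRSF2 in the library labelled SRSF2-OE 1 (214 CPM against 176 and 204 CPM in Control). That level was inside the range of 194 to 272 CPM that SRSF2 took in the other OE groups. TRA2B stood at 147 CPM in the library labelled TRA2B-OE 3, inside the range of 128 to 168 CPM that TRA2B took in the other OE groups. Directions given below for these libraries rest on their labels.

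The DNA in front of the target genes is shown first, because CTGF and ANKRD1 carried repeated copies of the core sequence that TEAD proteins bind. Windows of 250 bases before annotated start sites came from RefSeq (GRCh38.p14). They were searched on both strands for the TEAD core CATTCC, which reads GGAATG on the other strand, and for the AP-1 motif TGANTCA, whose factors often bind beside TEADs. The motifs share no overlapping match in these windows. The windows of CTGF, on the minus strand of chr6:131951373-131951622, and of ANKRD1, on the minus strand of chr10:90921088-90921337, read 5′ to 3′, with TEAD core matches in capitals:
CTGF: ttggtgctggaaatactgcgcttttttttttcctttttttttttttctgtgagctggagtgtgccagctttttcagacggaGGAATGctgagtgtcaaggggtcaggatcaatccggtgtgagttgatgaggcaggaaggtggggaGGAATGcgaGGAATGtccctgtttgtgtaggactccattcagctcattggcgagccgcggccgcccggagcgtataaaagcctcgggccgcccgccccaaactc
ANKRD1: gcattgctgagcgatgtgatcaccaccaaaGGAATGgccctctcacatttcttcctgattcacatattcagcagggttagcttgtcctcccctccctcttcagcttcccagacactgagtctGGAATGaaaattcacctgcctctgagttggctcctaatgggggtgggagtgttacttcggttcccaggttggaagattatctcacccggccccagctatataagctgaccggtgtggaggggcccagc

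CTGF, which encodes a secreted matrix-associated protein, had 3 TEAD core matches, 169 to 164, 104 to 99 and 95 to 90 bases before the start site. ANKRD1, which encodes a nuclear ankyrin-repeat protein, had 2, at 220 to 215 and 128 to 123 bases, with an AP-1 match at 195 to 189 bases. Among 35116 windows of the same length in the table, 11.9% held at least 1 TEAD core match, 0.940% held 2 or more, 0.0826% held 3 or more, and 6.57% held an AP-1 match. Windows were found for 8 of the 10 genes, 12 windows in all. Single TEAD core matches lay in the window of YAP1 and in the second window of AMOTL2, AJUBA and AXL, as the map of motif matches shows. WWTR1 and LATS2 had none within these bases. A match is a description of the letters, and binding was not measured.

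**Figure D1:**
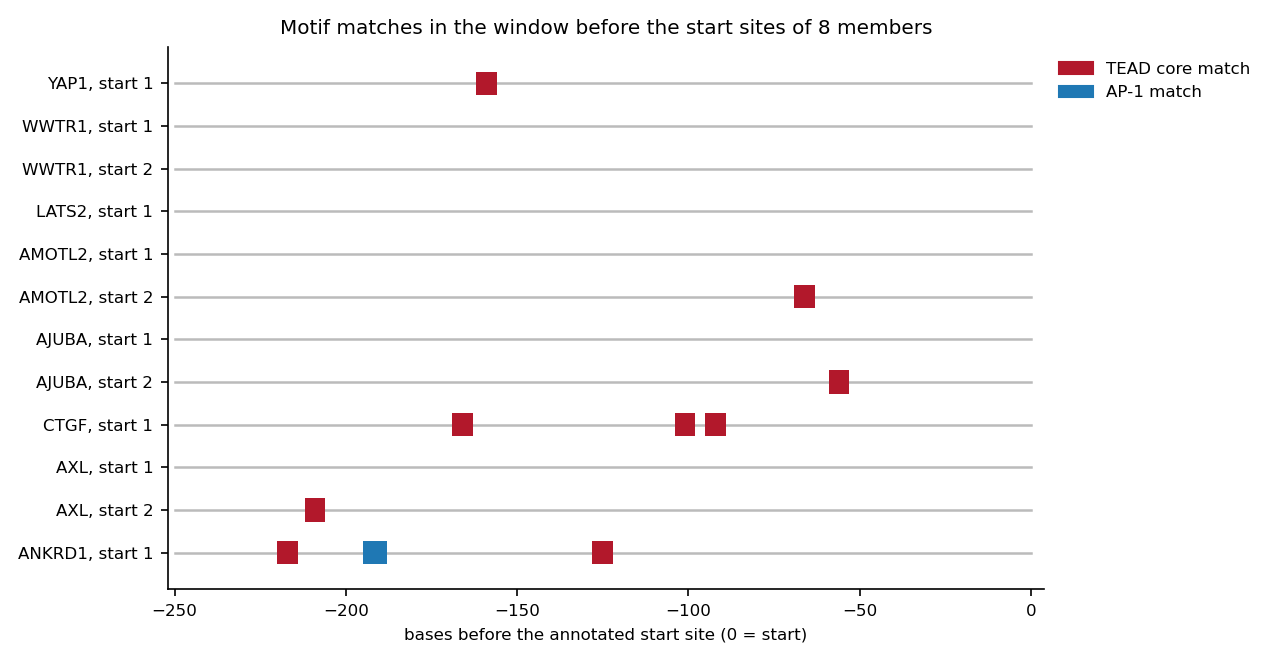
Positions of TEAD core (red) and AP-1 (blue) matches in the 250 bases before 12 annotated start sites of 8 genes; the x axis gives bases before the start and each line is a window. CTGF has 3 TEAD core matches and ANKRD1 2, while YAP1, AMOTL2, AJUBA and AXL have 1 each.

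Read per kilobase of exon, the 10 genes spanned a wide range of levels. By the median over 14 libraries, YAP1 was highest at 41.2 CPM per kilobase, followed by AJUBA at 30.1, AXL at 17.95, CYR61 at 12.1 and TEAD1 at 9.64 CPM per kilobase. AMOTL2 (5.53), WWTR1 (5.27) and LATS2 (3.995) lay close together, and their ranges over libraries overlapped. So did those of YAP1 and AJUBA, of AJUBA and AXL, of AXL and CYR61, of CYR61 and TEAD1, and of TEAD1 and AMOTL2. The medians of CTGF, at 0.157 CPM per kilobase, and ANKRD1, at 0.0205, lay far below, although CTGF reached 4.64 in TRA2B-OE 1-2. The transcript of YAP was thus higher than that of TAZ in every library, at 29.03 to 70.6 against 3.01 to 8.49 CPM per kilobase.

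No member differed between groups past the threshold, a Benjamini-Hochberg adjusted p under 0.05 by edgeR's quasi-likelihood test over all genes. Among the 50 tests of a member against Control, 0 passed, and the smallest adjusted p was 0.249. Over all genes edgeR called 0% in SRSF2-OE, SRSF4-OE and SRSF9-OE, 0.00469% in SRSF6-OE and 0.00938% in TRA2B-OE. An unadjusted p under 0.05 was found in 3 of the 50, against 12.8% of all gene tests in these contrasts. The 10 direct contrasts between OE groups gave 0 calls in 100 member tests, against 0.00563% of gene tests, with a smallest adjusted p of 0.153. Their unadjusted p was under 0.05 in 19 of 100, against 8.5% of gene tests, and the contrasts share libraries. The F test over the 6 groups called 0 of 10 members, against 0.0422% of genes, and its unadjusted p was under 0.05 for CTGF, TEAD1 and YAP1, against 13.6% of genes. DESeq2, run on the same libraries, called 1 member against Control, CTGF in TRA2B-OE, where it called 2.12% of all genes. In the other contrasts with Control it called no member and 2.37% (SRSF2-OE), 2.7% (SRSF4-OE), 5.81% (SRSF6-OE) and 0.0704% (SRSF9-OE) of genes. Its test over the 6 groups called CTGF alone of the 10 (adjusted p = 0.0192), against 7.42% of genes, and 3 of 100 member tests in the direct contrasts passed, against 0.962% of gene tests. On simulated counts, the edgeR test recovered 10% to 16% of genes changed 2-fold and 74% to 83% of genes changed 4-fold in contrasts with Control. A 2-fold difference in a member would therefore seldom have been called. The simulated counts held a spread set by level alone and no differences between label sets, unlike the real counts, where recovery may be lower. In the real counts the introduced SRSF9 in SRSF9-OE, at a log2 fold change of 2.71 over Control, was not called (edgeR adjusted p = 0.158).

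**Figure D2:**
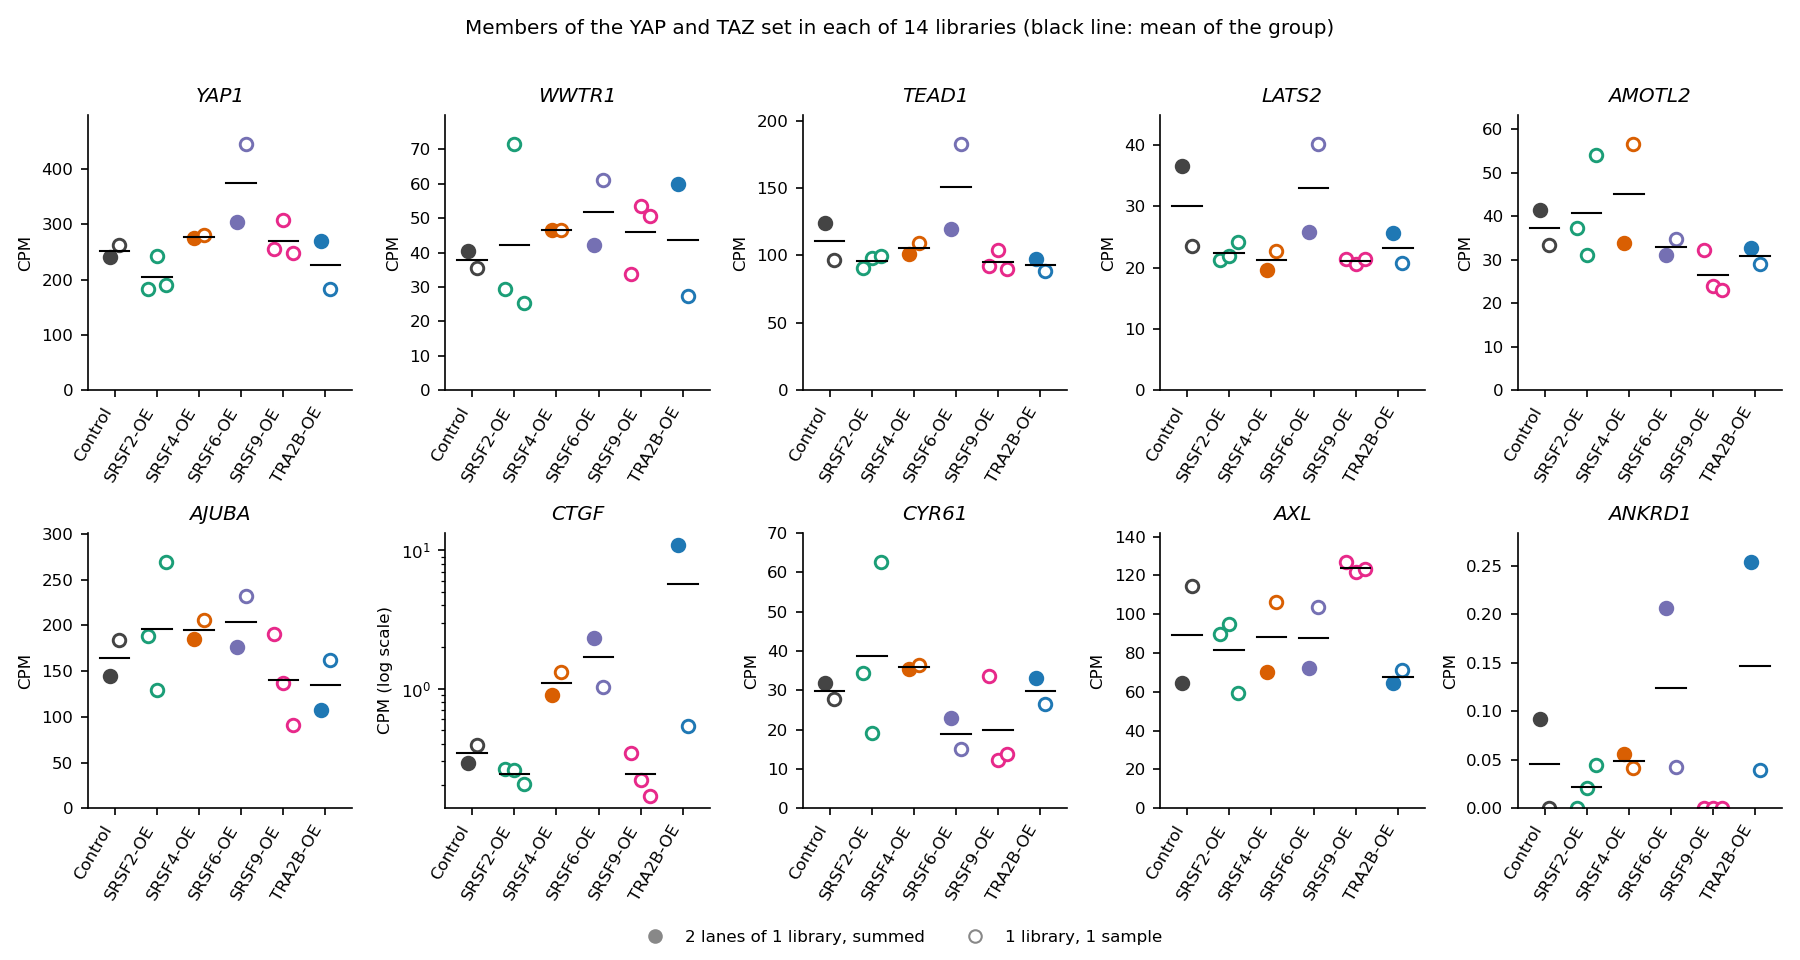
CPM of the 10 genes in each of 14 libraries by group, on a linear axis from 0 except for CTGF (log axis); filled points are libraries summed over 2 lanes, open points libraries of 1 sample, and black lines group means. YAP1, TEAD1 and LATS2 peak in the library SRSF6-OE 3, CTGF in TRA2B-OE 1-2, and the 3 SRSF9-OE libraries lie above all others for AXL.

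YAP1 stood at 242 CPM in Control 1-2 and 263 CPM in Control 3, and at 305 and 444 CPM in the libraries labelled SRSF6-OE 1-2 and 3. The libraries labelled SRSF6-OE were thus above Control within both sets of library labels, and the third replicate was the highest of the 14. SRSF4-OE held 275 and 280 CPM and SRSF9-OE 256, 307 and 248 CPM. SRSF2-OE held 183, 242 and 190 CPM, and TRA2B-OE 270 and 183 CPM. SRSF4-OE was just above Control, TRA2B-OE spread across it, and SRSF9-OE had 2 libraries within the Control values and 1 above. In SRSF6-OE the log2 fold change over Control was 0.57 ± 0.25 (SE; edgeR adjusted p = 0.249). The widest separation was between SRSF2-OE and SRSF6-OE, whose libraries did not overlap. There the log2 difference (SRSF2-OE minus SRSF6-OE) was -0.88 ± 0.23 (SE), with an adjusted p of 0.153 by edgeR and 0.0317 by DESeq2, which called 4.06% of genes in that contrast. SRSF6-OE was also above TRA2B-OE, by 0.72 ± 0.25 (SE; edgeR adjusted p = 0.317). Without SRSF6-OE 3 these 3 differences kept their sign, at 0.20, -0.44 and 0.37.

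YAP1 was lowest where mitochondrial transcripts took the largest share of counts. The libraries SRSF2-OE 1 and TRA2B-OE 3 had the largest shares, 16.4% and 14.3%, and the 2 lowest YAP1 levels, while SRSF6-OE 3 had the smallest share, 6.45%, and the highest level. Over the 14 libraries the log2 CPM of YAP1 and the mitochondrial share had a Pearson r of -0.824 (permutation p = 0.00015, adjusted 0.0027 over 18 relations) and a Spearman rho of -0.798 (permutation p = 0.00108, adjusted 0.0194). Without SRSF2-OE 1 and TRA2B-OE 3, the libraries farthest from the median share, r was -0.741, and within the 10 libraries with numeric labels it was -0.824. WWTR1 had the same sign, with r = -0.700 (permutation p = 0.00449, adjusted 0.0404) and rho = -0.692 (permutation p = 0.00758, adjusted 0.0682), and r = -0.574 without those libraries and -0.730 within the numeric labels. The permutations treated the 14 libraries as exchangeable, although libraries of a group are related. The share of all genes with as strong a relation was not counted, so it is not shown to be a trait of YAP1 or WWTR1. The part of the mitochondrial share in the differences between groups was not tested.

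WWTR1, the gene for TAZ, ranged from 25.4 to 71.4 CPM, with both extremes inside SRSF2-OE. Its 3 SRSF2-OE libraries held 29.5, 71.4 and 25.4 CPM and its TRA2B-OE libraries 59.8 and 27.5 CPM, so each of these groups spanned the Control values of 40.4 and 35.6 CPM. SRSF4-OE (46.5 and 46.6 CPM) and SRSF6-OE (42.2 and 61.1 CPM) lay above Control, and SRSF9-OE (33.7, 53.5 and 50.5 CPM) spread across it. In no contrast was its unadjusted edgeR p under 0.05, and the smallest was 0.366. An antisense transcript, WWTR1-AS1, overlaps WWTR1, and another, AP000942.2, overlaps YAP1. They held 1.93 to 9.99 and 26.2 to 79.1 CPM. The sources used here do not state whether counting used strand, so reads of such partners could not be told apart from those of the member.

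TEAD1, which encodes one of the TEAD proteins through which YAP and TAZ reach DNA, stood at 124 and 96.8 CPM in Control and at 120 and 182 CPM in the libraries labelled SRSF6-OE. The libraries of SRSF2-OE (90.4, 98.4 and 99.8 CPM), SRSF4-OE (101 and 109 CPM), SRSF9-OE (92.5, 104 and 90.2 CPM) and TRA2B-OE (97.6 and 88.2 CPM) formed a narrow band. SRSF6-OE overlapped Control but none of the other 4 groups. TEAD1 was higher in SRSF6-OE than in SRSF9-OE by 0.68 ± 0.19 (log2, SE; edgeR adjusted p = 0.381) and than in TRA2B-OE by 0.69 ± 0.21 (adjusted p = 0.302). Against SRSF2-OE the difference (SRSF2-OE minus SRSF6-OE) was -0.67 ± 0.19 (edgeR adjusted p = 0.173), and against SRSF4-OE (SRSF4-OE minus SRSF6-OE) it was -0.52 ± 0.21 (adjusted p = 0.748). Without SRSF6-OE 3 the differences in this order were 0.20, 0.30, -0.19 and -0.12, so their size came from that library.

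LATS2 phosphorylates YAP and TAZ and is itself a target of them. It was highest in SRSF6-OE 3 (40.1 CPM) and Control 1-2 (36.5 CPM), while the other 12 libraries lay between 19.7 and 25.8 CPM. SRSF4-OE (19.7 and 22.7 CPM) and SRSF9-OE (21.5, 20.6 and 21.4 CPM) were below both Control libraries (36.5 and 23.5 CPM), narrowly so against Control 3. Differences with an unadjusted edgeR p under 0.05 all involved SRSF6-OE. It exceeded SRSF9-OE by 0.63 ± 0.24 (log2, SE; edgeR adjusted p = 0.469). Its difference from SRSF4-OE (SRSF4-OE minus SRSF6-OE) was -0.64 ± 0.25 (edgeR adjusted p = 0.748) and from SRSF2-OE (SRSF2-OE minus SRSF6-OE) -0.54 ± 0.24 (edgeR adjusted p = 0.280). Without SRSF6-OE 3 the differences in this order were 0.038, -0.15 and 0.043, so all 3 rested on that library, and the last changed sign.

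AMOTL2, a junctional scaffold that binds YAP and TAZ and is also a target, held 41.4 and 33.5 CPM in Control. It was lower in every library of SRSF9-OE (32.4, 24.0 and 23.2 CPM) and TRA2B-OE (32.6 and 29.1 CPM). The highest levels were in SRSF4-OE 3 (56.6 CPM) and SRSF2-OE 3 (54.1 CPM), while other libraries of those groups held 31.2 to 37.4 CPM. AMOTL2 was higher in SRSF4-OE than in SRSF9-OE by 0.81 ± 0.29 (log2, SE; edgeR adjusted p = 1) and in SRSF2-OE than in SRSF9-OE by 0.63 ± 0.25 (edgeR adjusted p = 0.396). They were 0.26 without SRSF4-OE 3 and 0.37 without SRSF2-OE 3. AJUBA, a LIM-domain protein that restrains LATS kinases, ranged from 91.5 CPM in SRSF9-OE 3 to 269 CPM in SRSF2-OE 3. Its Control libraries held 144 and 184 CPM, and only the SRSF4-OE libraries (185 and 206 CPM) lay outside them on one side. Its smallest unadjusted edgeR p over the 15 contrasts was 0.0616.

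CTGF showed the widest range of the 9 genes detected in every library, 64.7-fold between the highest and the lowest. It stood at 0.291 and 0.392 CPM in Control (38 and 20 counts) and at 10.9 CPM in TRA2B-OE 1-2 (1070 counts), but at 0.532 CPM in the library labelled TRA2B-OE 3 (27 counts). The 2 lanes behind TRA2B-OE 1-2 held 570 and 500 counts. Levels were also above both Control libraries in SRSF4-OE (0.891 and 1.31 CPM) and SRSF6-OE (2.34 and 1.03 CPM). SRSF2-OE, at 0.261, 0.256 and 0.202 CPM, lay below Control, and SRSF9-OE, at 0.342, 0.219 and 0.168 CPM, overlapped it. As the values above show, the 6 libraries of SRSF4-OE, SRSF6-OE and TRA2B-OE were all above the other 8, at 7 to 1070 counts per library. The margin was narrow, 27 counts in TRA2B-OE 3 against 20 in Control 3. This split was singled out after the values were seen, and the share of all genes with such a split was not counted.

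In TRA2B-OE the log2 fold change of CTGF over Control was 3.58 ± 1.05 (SE), with an adjusted p of 0.268 by edgeR and 0.00787 by DESeq2. It rested on TRA2B-OE 1-2: the log2 fold change was 0.72 without that library (edgeR adjusted p = 0.726) and 4.95 without TRA2B-OE 3 (adjusted p = 0.0373). Over the alternatives the edgeR, DESeq2 and limma adjusted p ran from 0.00426 to 0.850. In SRSF6-OE the log2 fold change was 2.13 ± 0.95 (SE; edgeR adjusted p = 0.254), and 1.22 without Control 1-2. CTGF differed by -2.19 ± 0.92 for SRSF2-OE minus SRSF6-OE (edgeR adjusted p = 0.265) and by -3.64 ± 1.04 for SRSF2-OE minus TRA2B-OE (edgeR adjusted p = 1). The difference was 2.16 ± 0.92 for SRSF6-OE minus SRSF9-OE (edgeR adjusted p = 0.4997) and -3.61 ± 1.04 for SRSF9-OE minus TRA2B-OE (edgeR adjusted p = 0.727). DESeq2 called 2 of these, SRSF2-OE minus TRA2B-OE and SRSF9-OE minus TRA2B-OE, in contrasts where it called 0.16% and 0.272% of genes. Both differences rested on TRA2B-OE 1-2: without it they were -1.16 and -1.12 by edgeR.

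Markers of dividing cells also varied between libraries. The summed level of 8 mitosis genes, among them MKI67, TOP2A and PLK1, was 172 and 414 CPM in Control. It was 549 and 989 CPM in SRSF4-OE, 864 and 635 CPM in SRSF6-OE, and 582 and 1119 CPM in TRA2B-OE. In SRSF2-OE it was 897, 219 and 580 CPM, and in SRSF9-OE 680, 480 and 180 CPM. By the fitted values 8 of 8 were above Control in each OE group, with median log2 fold changes of 0.82 (SRSF2-OE), 1.58 (SRSF4-OE), 1.67 (SRSF6-OE), 0.42 (SRSF9-OE) and 1.56 (TRA2B-OE). No mitosis gene was called by edgeR, with an unadjusted p under 0.05 in 13 of 40 tests against 12.8% of all gene tests. DESeq2 called AURKA and TPX2 in SRSF4-OE and those genes and MKI67 in SRSF6-OE, where it called 2.7% and 5.81% of all genes. Across libraries CTGF and the summed mitosis level had r = 0.420 (permutation p = 0.132, adjusted 0.371) and rho = 0.525 (permutation p = 0.0562, adjusted 0.253). In bulk RNA, more dividing cells and more RNA per cell cannot be told apart, and the part of cell division in the CTGF levels was not tested.

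CYR61 encodes a secreted relative of CTGF and shares its place among textbook YAP targets, but its levels followed another order. It stood at 31.8 and 27.7 CPM in Control, 35.3 and 36.4 CPM in SRSF4-OE, and 33.1 and 26.5 CPM in TRA2B-OE. SRSF2-OE spread from 19.2 to 62.5 CPM. The libraries labelled SRSF6-OE, at 22.9 and 15.1 CPM, lay below Control, where CTGF lay above it. SRSF9-OE split into 33.7 CPM and 12.2 and 13.7 CPM. The smallest unadjusted edgeR p of CYR61 in the 15 contrasts was 0.0575.

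AXL encodes a receptor tyrosine kinase. It stood at 127, 122 and 123 CPM in SRSF9-OE, above all 11 other libraries, a pattern that 0.225% of the genes tested shared. This pattern was singled out after the values were seen. Control spread widely, at 64.3 and 114 CPM, as did SRSF4-OE (70.3 and 107 CPM) and SRSF6-OE (72.2 and 104 CPM). SRSF2-OE held 90.03, 95.02 and 59.6 CPM and TRA2B-OE 64.5 and 71.1 CPM. Wherever a group had both kinds of library, the one summed over lanes held less AXL than the single one, and none of the SRSF9-OE libraries was summed. With label set in the model, SRSF9-OE exceeded Control by 0.26 ± 0.22 (log2, SE; edgeR adjusted p = 0.873). It exceeded TRA2B-OE by 0.60 ± 0.23 (edgeR adjusted p = 0.799), and SRSF2-OE minus SRSF9-OE was -0.61 ± 0.18 (edgeR adjusted p = 0.316). The difference from TRA2B-OE was 0.31 without TRA2B-OE 3.

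ANKRD1, whose window holds 2 TEAD core matches, was barely detected. It had 12 and 0 counts in Control, 25 and 2 in TRA2B-OE, 23 and 2 in SRSF6-OE, 5 and 2 in SRSF4-OE, and 0, 1 and 2 in SRSF2-OE. All 3 SRSF9-OE libraries had 0 counts. The 3 libraries summed over lanes in Control, SRSF6-OE and TRA2B-OE, which are also the deepest, held all values above 5 counts. No fold change is given at these counts.

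The number of members that did not overlap Control was close to that of genes in general for most groups. In SRSF4-OE 5 of 10 (YAP1, WWTR1, AJUBA, CTGF and CYR61) lay above both Control libraries, against 25.3% of all genes tested, and 1 (LATS2) below, against 27.2%. In SRSF6-OE 3 lay above (YAP1, WWTR1 and CTGF), against 22.8%, and 1 below (CYR61), against 24.4%. In SRSF9-OE 1 lay above (AXL; 16.5% of genes) and 2 below (LATS2 and AMOTL2; 17.6%). In TRA2B-OE 1 lay above (CTGF; 18.3%) and 1 below (AMOTL2; 18.2%), and in SRSF2-OE 0 lay above (16.7%) and 1 below (CTGF; 17.5%). The median log2 fold change of the 10 was 0.01 in SRSF2-OE, 0.21 in SRSF4-OE, 0.38 in SRSF6-OE, -0.32 in SRSF9-OE and -0.20 in TRA2B-OE. That of all genes stayed within -0.04 and 0.04. The 10 include ANKRD1, whose fitted values rest on few counts. With ANKRD1 at a floor of 3 counts over SRSF9-OE, the median there stayed at -0.32.

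A wider signature of 22 YAP and TAZ targets, 6 of them members, was described in the same way. Its median log2 fold change was -0.03 in SRSF2-OE, 0.21 in SRSF4-OE, 0.19 in SRSF6-OE, -0.01 in SRSF9-OE and -0.04 in TRA2B-OE. It had 10, 15, 14, 11 and 10 genes above Control in that order, while 46.9% to 53.0% of all genes were above it, and all genes had medians of -0.04 to 0.04. Setting ANKRD1 at a floor of 3 counts over SRSF9-OE left that median at -0.01. No gene of the signature was called by edgeR in any contrast with Control, and 22 of its 110 tests had an unadjusted p under 0.05, against 12.8% of all gene tests. DESeq2 called 2 of the 22 genes in SRSF4-OE (2.7% of all genes), 6 in SRSF6-OE (5.81%) and 2 in TRA2B-OE (2.12%), and 0 in SRSF2-OE (2.37%) and SRSF9-OE (0.0704%).

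**Figure D3:**
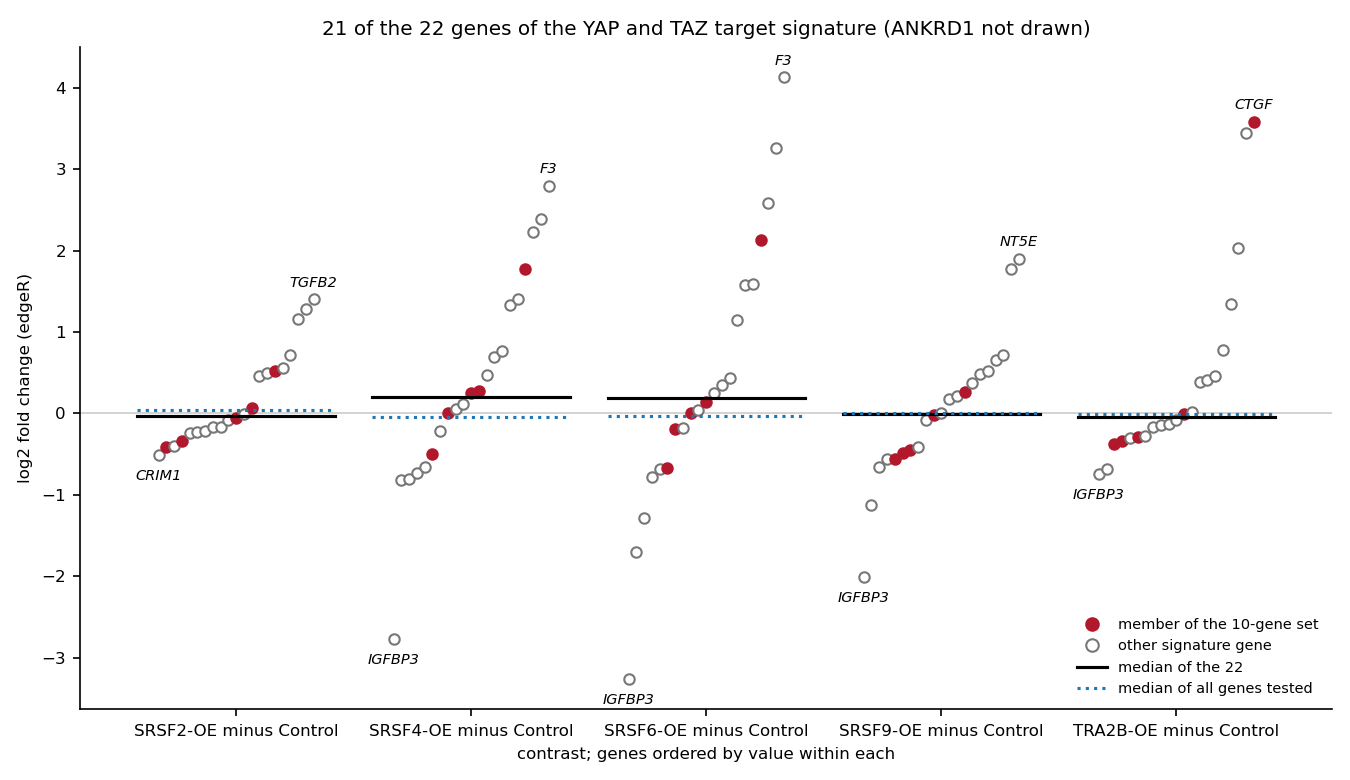
Log2 fold changes over Control (edgeR) of 21 of the 22 signature genes in the 5 OE groups, ordered within each contrast; red points are members of the 10-gene set, black lines the median of the 22 and dotted blue lines the median of all genes tested. ANKRD1 is not drawn because of its low counts. The medians run from -0.04 to 0.21, while single genes range from IGFBP3 at the low end to CTGF and F3 at the high end.

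The signature held genes that differed in opposite directions. NUAK2, a stress-responsive kinase, stood at 6.73 and 19.2 CPM in Control and at 24.4 and 51.0 CPM in SRSF6-OE, where DESeq2 called it higher (log2 1.61, DESeq2 adjusted p = 0.00474; edgeR 0.144). DOCK5, a guanine nucleotide exchange factor, was 57.98 and 64.4 CPM in Control and 90.4 and 192 CPM in SRSF6-OE (log2 1.15 ± 0.26 by edgeR, adjusted p = 0.136; 0.00516 by DESeq2). FOXF2, a forkhead transcription factor, was lower in SRSF6-OE, at 3.38 and 2.13 CPM against 9.35 and 8.61 CPM (edgeR log2 -1.70 ± 0.31, adjusted p = 0.109; DESeq2 adjusted p = 0.000108). IGFBP3, which binds insulin-like growth factors, was 15.4 and 5.55 CPM in Control and 1.88 and 0.452 CPM in SRSF6-OE (edgeR log2 -3.26 ± 0.95, adjusted p = 0.168; DESeq2 adjusted p = 0.0067). These 4 genes had the smallest F-test p of the signature outside the 10-gene set. Their differences were not particular to SRSF6-OE. DESeq2 also called NUAK2 higher (adjusted p = 0.0224) and IGFBP3 lower (0.0427) in SRSF4-OE. DOCK5 was above both Control libraries in every OE library, at 74.01 CPM or more. The share of all genes with this pattern was not counted. FOXF2 was below both Control libraries in SRSF4-OE (4.90 to 5.40 CPM) and TRA2B-OE (6.27 to 8.23 CPM). IGFBP3 was so in SRSF2-OE (2.57 to 5.51 CPM) and SRSF9-OE (0.378 to 3.11 CPM). Of all genes tested, 27.2% lay below both Control libraries in SRSF4-OE, 18.2% in TRA2B-OE, 17.5% in SRSF2-OE and 17.6% in SRSF9-OE. TGFB2, named after its values were seen, had the same peak as CTGF, with 28.9 CPM in TRA2B-OE 1-2 against 0.315 CPM in TRA2B-OE 3 and 1.16 and 0.314 CPM in Control. F3, the gene for tissue factor and also named after its values were seen, had the highest fitted fold change in SRSF6-OE (log2 4.13 ± 1.64, edgeR adjusted p = 0.224).

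In the rest of the pathway edgeR also called 0 genes against Control. An unadjusted p under 0.05 was found in 8 of 30 tests of TEADs and partners, 8 of 65 of core kinases and adaptors, 15 of 95 of upstream regulators and 16 of 70 of SRF and MRTF targets, against the 12.8% of all gene tests given above. Of the TEADs and their partners, 6 of 8 were tested, VGLL1 and VGLL2 being filtered out, and DESeq2 called none. VGLL4, which competes with YAP for TEADs, was 52.4 and 67.5 CPM in Control against 38.3 and 43.6 CPM in SRSF4-OE, 41.6 and 42.2 CPM in SRSF6-OE, and 39.4 to 43.3 CPM in SRSF9-OE. None of those groups overlapped Control, but the edgeR adjusted p in SRSF6-OE was 0.239. VGLL3, another partner, held 35.9 and 81.5 CPM in Control and 17.2 and 25.1 CPM in SRSF6-OE. It was also below both Control libraries in SRSF4-OE (22.7 to 27.55 CPM) and SRSF9-OE (15.4 to 30.01 CPM). Of all genes tested, 27.2% lay below both Control libraries in SRSF4-OE, 24.4% in SRSF6-OE and 17.6% in SRSF9-OE. TEAD4 took 7.74 to 17.0 CPM and TEAD2 17.8 to 46.3 CPM over all libraries.

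Of the 13 core kinases and adaptors, all tested, DESeq2 called 1. SAV1, the adaptor of STK3 and STK4, was lower in SRSF2-OE, at 23.3 to 27.8 CPM against 41.5 and 54.0 CPM in Control (edgeR log2 -0.82 ± 0.21, adjusted p = 0.185; DESeq2 adjusted p = 0.0332). This was not particular to SRSF2-OE. SAV1 was also below both Control libraries in SRSF4-OE (30.5 and 33.3 CPM), SRSF9-OE (32.2 to 40.6 CPM) and TRA2B-OE (29.2 and 38.4 CPM). SRSF6-OE (39.0 and 52.8 CPM) overlapped Control. Of all genes tested, 17.5% lay below both Control libraries in SRSF2-OE, 27.2% in SRSF4-OE, 17.6% in SRSF9-OE and 18.2% in TRA2B-OE. STK3 had the smallest F-test p of this list, 0.00629 (edgeR adjusted p = 0.276), with 19.1 and 41.9 CPM in SRSF6-OE and 10.01 to 18.7 CPM in all other libraries. MOB1B, a coactivator of LATS kinases, was 26.2 to 34.2 CPM in SRSF2-OE against 42.6 and 46.9 CPM in Control (edgeR adjusted p = 0.318). TAOK2, a kinase upstream of STK3 and STK4, was 79.8 to 83.9 CPM in SRSF2-OE against 57.9 and 59.1 CPM in Control (edgeR adjusted p = 0.286). In SRSF2-OE 9 of the 13 were below Control, with a median log2 fold change of -0.36, against 0.04 for all genes.

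Of 21 upstream regulators 19 were tested, AMOT and SCRIB being filtered out. WTIP, a LIM protein related to AJUBA, was below both Control libraries in every library of all the OE groups. These groups share the Control libraries, and the share of all genes with this pattern was not counted. DESeq2 called WTIP lower than Control in SRSF4-OE and SRSF6-OE only. WTIP reached at most 7.13 CPM in SRSF2-OE, 7.3 CPM in SRSF9-OE and 5.52 CPM in TRA2B-OE. It held 10.97 and 10.4 CPM across the Control libraries, 2.79 to 3.89 CPM in SRSF4-OE and 2.05 to 3.89 CPM in SRSF6-OE (DESeq2 adjusted p = 0.0345 and 0.00988; edgeR 0.244 and 0.159). CRB3, an apical polarity protein, AMOTL1, a relative of AMOTL2, and FAT1, an atypical cadherin, all peaked in SRSF6-OE 3, the library in which YAP1, TEAD1 and LATS2 were also highest. CRB3 held 19.6 CPM there and 6.05 to 10.7 CPM in all others. AMOTL1 held 292 CPM there against at most 194 CPM elsewhere, and FAT1 468 CPM against at most 350 CPM. NUAK2, DOCK5 and STK3 were highest in SRSF6-OE 3 as well. How many of all genes peaked in that library was not counted, so the shared peak is not a result about the pathway.

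Genes of the SRF and MRTF pathway, which responds to actin and shares targets with YAP, lay mostly above Control in all 5 OE groups, which share the same Control libraries. Of the 14 tested of 16 (ACTG2 and CNN1 were filtered out), 12, 10, 11, 12 and 9 were above Control in SRSF2-OE, SRSF4-OE, SRSF6-OE, SRSF9-OE and TRA2B-OE. The median log2 fold changes were 0.61, 0.39, 0.41, 0.32 and 0.25 in that order, while all genes had medians of -0.04 to 0.04. Of all genes, 46.9% to 53.0% were above Control. ACTB, the gene for beta-actin, was 649 and 879 CPM in Control and 1403 to 4352 CPM in the 12 OE libraries. DESeq2 called it higher in SRSF2-OE (adjusted p = 0.0283) and SRSF6-OE (0.00769), where edgeR gave 0.231 and 0.157. CNN2, an actin-binding calponin, was 78.4 and 134 CPM in Control and 155 to 360 CPM in the OE libraries. DESeq2 called it higher in SRSF6-OE (adjusted p = 0.0159), where edgeR gave 0.154. How many of all genes had every OE library above Control, as ACTB and CNN2 did, was not counted. TPM1, a tropomyosin, overlapped Control in SRSF2-OE and was below it in the other 4 groups, at 39.5 to 63.8 against 69.1 and 128 CPM. In those groups 17.6% to 27.2% of all genes tested lay below both Control libraries. ACTG1, whose reads can be shared with near-identical copies, was listed at under 1 CPM in every library and is uncertain. It is nevertheless among the genes counted above Control in all 5 OE groups.

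Over the 14 libraries 36 pairs were correlated on log2 CPM, with ANKRD1 left out. TEAD1 and LATS2 had r = 0.859 (permutation p adjusted over 36 pairs 0.0166), but rho was 0.560 (adjusted 0.211) and r was 0.469 without SRSF6-OE 3 and Control 1-2, so the relation rests on those libraries. YAP1 and TEAD1 had r = 0.773 (adjusted 0.0247) and rho = 0.631 (adjusted 0.170), with r = 0.437 without SRSF6-OE 3 and SRSF2-OE 1. YAP1 and WWTR1 had r = 0.693 (adjusted 0.0432) and rho = 0.618 (adjusted 0.170), with r = 0.625 without those libraries and 0.719 within the numeric labels.

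AMOTL2 and CYR61 had r = 0.778 (permutation p = 0.00092, adjusted 0.0166) and rho = 0.763 (adjusted 0.0788), with r = 0.712 without SRSF4-OE 3 and SRSF2-OE 3 and 0.812 within the 10 libraries with numeric labels. AMOTL2 and AJUBA had r = 0.676 (adjusted permutation p = 0.0629) and rho = 0.710 (adjusted 0.106). CTGF and CYR61 had r = 0.142 (adjusted permutation p = 0.732) and rho = 0.196. YAP1 and CYR61 had r = -0.538 (adjusted permutation p = 0.217) and WWTR1 and CYR61 r = -0.620 (adjusted 0.109). Both coactivator transcripts thus had a negative r with this target, short of the threshold. Libraries of a group are related, so the 14 points are not fully independent.

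**Figure D4:**
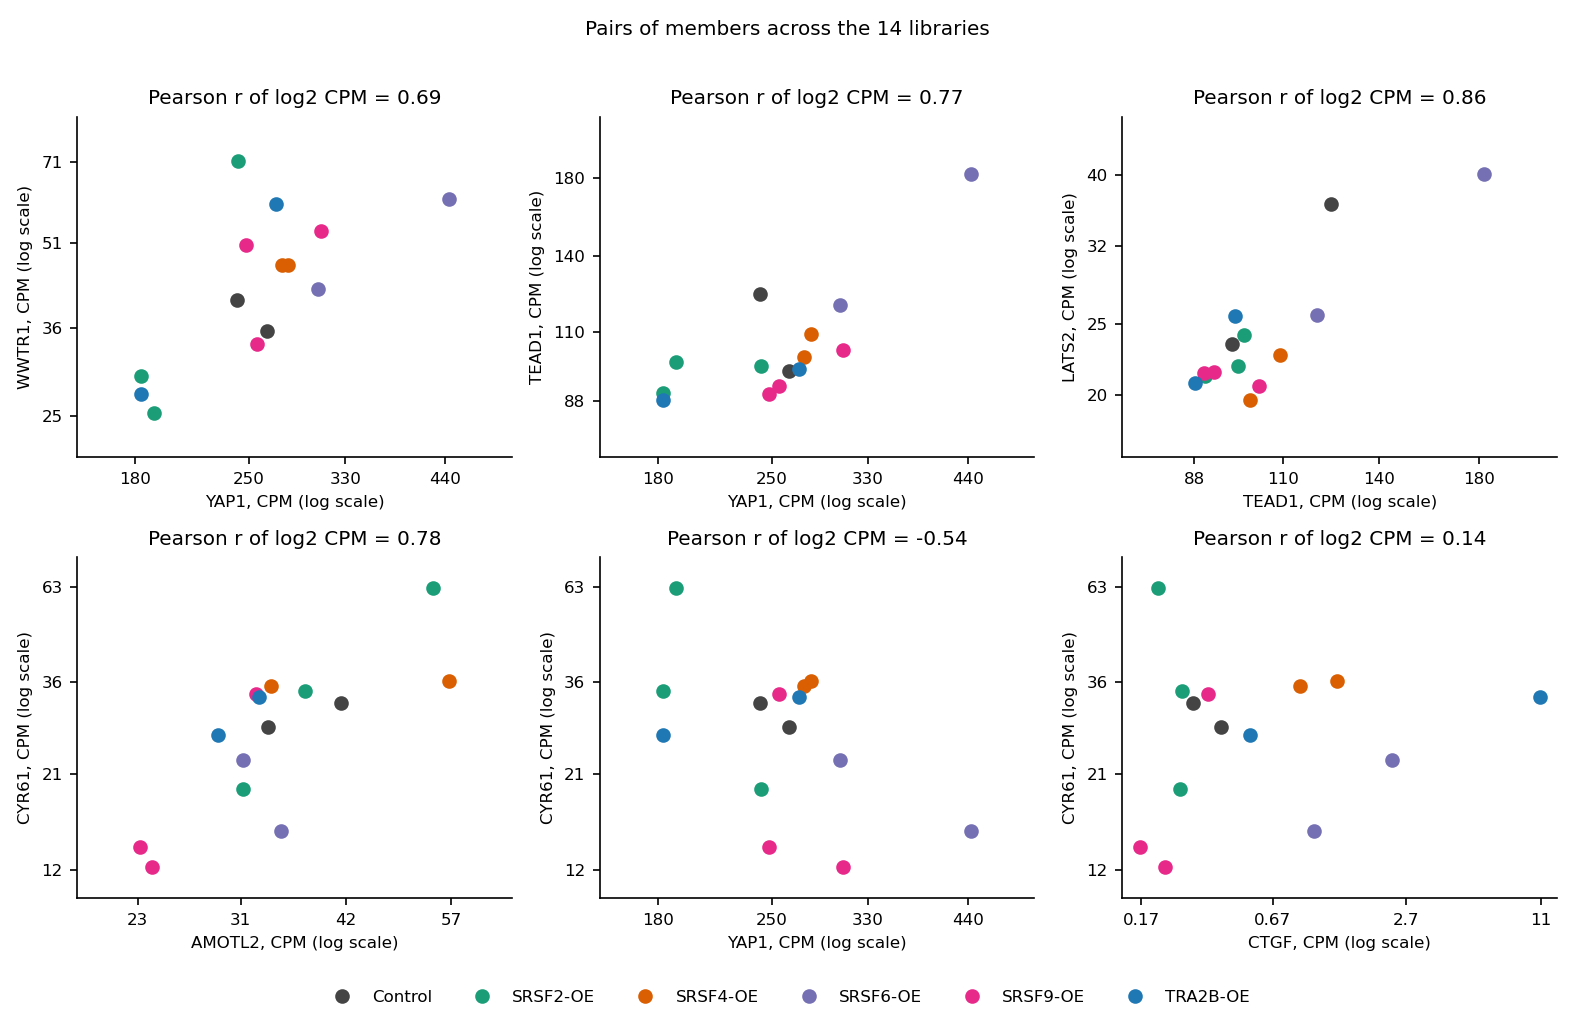
CPM of 6 pairs of members across 14 libraries coloured by group, both axes on log scales, with the Pearson r of log2 CPM above each panel. AMOTL2 and CYR61 line up (r = 0.78), CTGF and CYR61 do not (r = 0.14), and the library at the top right of the TEAD1 panels is SRSF6-OE 3.

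Among 12800 genes with a mean of at least 3 CPM, those most like YAP1 across the 14 libraries included TMEM87B and RASSF3 (r = 0.971 each), FAM167A (0.971) and MTPN (0.969). CTGF had r = 0.389 and CYR61 r = -0.538 with the same pattern. The genes most like the mean standardised level of CTGF and CYR61 were FAM173B (r = 0.889), EPB41L1 (0.882), HNRNPM (0.871), RPL9 (0.853) and SNHG12 (0.850). CTGF and CYR61 themselves had r = 0.756 each with that mean, a value fixed by their r of 0.142 with each other. These are the top values out of many genes and a description only.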

How the data were processed

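The deposited table held raw counts per gene, made by the authors for 18 samples of mRNA sequencing (101-base pairs) from MCF-10A cells. The submitters' processing notes list STAR 2.5.1b, Trimmomatic 0.36, featureCounts, Subread and the build GRCh37. Whether strand was used, and whether reads or pairs were counted, is not given in these sources. IDs were matched to GENCODE 29 (a later build) for names, exon lengths and overlaps, and 55951 of 60252 found a name. Samples held 36426438 to 70515965 counts.

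Samples with the same library ID and barcode were summed. The mean chi-square per gene was 3.82 to 9.06 between such lanes, above sampling noise, and 58.8 to 318 between other pairs of a group. The 14 libraries were scaled by TMM after filterByExpr at a minimum count of 10, in edgeR 4.0.16 (R 4.3.3). The quasi-likelihood model held the group and a label set: the 4 summed libraries have a library ID in their description, and the other 10 a plain number. It had 7 residual degrees of freedom and a common biological coefficient of variation of 0.318. Calls needed a p under 0.05 after Benjamini-Hochberg adjustment over 21326 genes. DESeq2 1.42.0, limma-voom 3.58.1, other scalings, no filter, no label set term, a replicate block, 18 separate samples, only the groups compared and leaving out each library were alternatives. The fit was tested on simulated counts. CPM uses TMM library sizes. Fold changes are given for member contrasts with an unadjusted edgeR p under 0.05, and for the AXL pattern. P-values of correlations come from 100000 permutations, and the smallest p these can give is 1e-05.

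The rule for named genes took all 10 members, up to 4 other genes with the smallest F-test p from each of 5 pathway lists, the introduced factors, and the 5 genes most like YAP1 and most like CTGF with CYR61. Of the genes this rule took, 1 is not reported here. The members and lists were chosen with earlier results of these data known. The RefSeq table used here gave no window for TEAD1 and CYR61.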

Additional observations from a re-analysis of the deposited data

How the results depend on the processing

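By edgeR 0 of the 10 genes passed the threshold in each contrast with Control, in the F test and in the direct contrasts. With DESeq2 the count was 1 in TRA2B-OE against Control (CTGF) and 3 in the direct contrasts (YAP1 once, CTGF 2 times). It was 1 (CTGF) in the DESeq2 test over the 6 groups, a likelihood ratio test in place of the F test. With the 18 samples as separate replicates it was 1 in SRSF4-OE (LATS2), 1 in SRSF6-OE (CTGF), 1 in TRA2B-OE (CTGF), 2 in the F test (CTGF and TEAD1) and 2 in the direct contrasts (YAP1 and TEAD1), where lanes of a library count as replicates. With only the 2 groups compared it was 1 in SRSF4-OE (CTGF). Leaving out a library gave 0 to 1 in TRA2B-OE (1 without TRA2B-OE 3) and 0 to 2 in the direct contrasts (2 without SRSF6-OE 1-2 or TRA2B-OE 1-2, 1 without TRA2B-OE 3). All other counts were 0, as were all under limma-voom, other scalings, no filter and no label set term. Of 463 fold changes of members under alternatives to the 20 reported, 14 passed the threshold and 1 reversed: LATS2 in SRSF2-OE minus SRSF6-OE, which ran from -0.84 (without SRSF6-OE 1-2) to 0.043 (without SRSF6-OE 3). Leaving out SRSF2-OE 1 and TRA2B-OE 3 together, an alternative added after seeing the data, gave CTGF in TRA2B-OE a log2 fold change of 4.95 (edgeR adjusted p = 0.0576). The cause of these differences was not tested.

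Over all genes, in the order SRSF2-OE, SRSF4-OE, SRSF6-OE, SRSF9-OE and TRA2B-OE, edgeR called 0, 0, 1, 0 and 2 genes, DESeq2 506, 575, 1238, 15 and 452, and the 18 samples 1345, 3465, 4030, 5 and 2897. Upper-quartile scaling moved the median of all genes by -0.12 (log2) in SRSF6-OE 3. With the replicate block in place of the label set, 0 of the 10 genes were called in every contrast. Whether the replicate numbers paired the samples could not be settled. Deviations of same-numbered libraries had correlations of -0.396 to 0.463, over 0.1 in 16 of 31 pairs. Between groups of 2 libraries the pairs numbered 1 and 3 repeat the same value, 0.456 both times for Control with SRSF4-OE. In those groups the number also goes with the label set. Depth limits CTGF, at 7 counts in its lowest library, and ANKRD1.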
